A study of Mus musculus with 14 samples.

Results

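Double-strand break and crosslink repair genes were followed in mouse melanoma cells stressed with cationic liposomes, heat or a membrane fluidizer. The set was a list of 39 genes for damage signalling, end resection, recombination, end joining and the Fanconi anaemia pathway, and each gene was read from the probeset that carried its symbol alone and had the highest mean over the 14 arrays. Of the 39 genes, 29 were read this way, out of 12393 genes on the arrays. The other 10 (Atrip, Mdc1, Rbbp8, Palb2, Xrcc2, Xrcc3, Rad54b, Lig4, Dclre1c and Fancd2) were not analysed here, Atrip because its only probeset was shared with other symbols.

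All cells were B16-F10, a melanoma line of the C57BL/6J strain, and the study asked what lipofection does to their gene expression. LA cells (n = 3) received Lipofectamine 2000 without plasmid for 3 h in Opti-MEM and recovered for 30 min in RPMI with serum. HS cells (n = 3) were held for 1 h at 42.5 °C and recovered for 30 min at 37 °C, and BA cells (n = 3) were given 40 mM benzyl alcohol for 1 h at 37 °C. Control cells (n = 5) were untreated. The recovery of BA cells is 3 h in the protocol and 30 min in the description of the series, and this was not settled. No arm received the Opti-MEM step alone, so liposomes and medium cannot be told apart in the LA arrays. Replicates were labelled as biological, and the signal was RMA signal on the log2 scale from Affymetrix mouse expression arrays.

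A double-strand break is sensed by the Mre11-Rad50-Nbn complex, which activates the kinase Atm, while Atr answers to single-stranded DNA and activates Chek1. Breaks are rejoined directly by end joining, which begins with the Ku proteins, or copied from the sister chromatid by homologous recombination, in which Brca1 and Brca2 take part. Crosslinks between strands are unhooked by the Fanconi anaemia pathway, and many recombination genes are transcribed most in dividing cells around S phase.

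Control arrays 1 and 3 stood apart from control arrays 2, 4 and 5. Of all genes, 20.9% were lower and 19.5% were higher in control arrays 1 and 3 without overlap. The genes of the endoplasmic reticulum stress response (15 of 15) and NRF2 targets (9 of 9) were higher in these 2 arrays, with median differences of 1.62 and 1.39, and mitosis genes (24 of 26) were lower. The treated groups lay on different sides of this split. Relative to the mean of all controls, the median of endoplasmic reticulum stress genes was 1.01 and 1.03 in control arrays 1 and 3. It was 0.405 to 0.575 in LA arrays and 0.921 to 0.995 in HS arrays. In BA arrays it was -0.70 to -0.25, and in control arrays 2, 4 and 5 it was -0.79 to -0.56. The part of this split in the changes against control was not tested. Repair gene calls with Lipofectamine, heat shock and benzyl alcohol that changed without either set of control arrays are given below. Melanocyte markers, the identity check of the line, had array medians of 11.47 to 11.54 in LA cells, 11.29 to 11.39 in HS cells, 11.18 to 11.80 in BA cells and 11.52 to 11.93 in control cells, and the medians of fibroblast, macrophage, epithelial and endothelial markers lay between 5.14 and 6.62 in every array. Of 9 melanocyte markers, 1 fell in LA cells, 3 in HS cells and 0 in BA cells, against 3.33%, 4.15% and 0.694% of all genes. In control arrays 1 and 3, 6 of the 9 were lower than in the other controls without overlap. The part of these markers in the results below was not tested.

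Lipofectamine lowered 10 of the 29 repair genes (34.5%) and raised 0, whereas over all genes 3.33% fell and 1.69% rose. The 10 were Rad50, Mre11a, Rad51d, Brca1, Brca2, Fancl, Blm, Chek1, Xrcc6 and Fanca, with log2 changes between -0.39 and -0.97. The median change of the 29 genes was -0.37, against -0.02 for all genes, and 26 of the 29 changes were negative. At an unadjusted p under 0.05, limma gave 18 lower and 0 higher repair genes. All LA arrays lay below all control arrays for 14 of the 29 genes, against 7.42% of all genes. In RNA from a whole culture, fewer cells that express a gene and less RNA in each cell cannot be told apart.

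**Figure D1:**
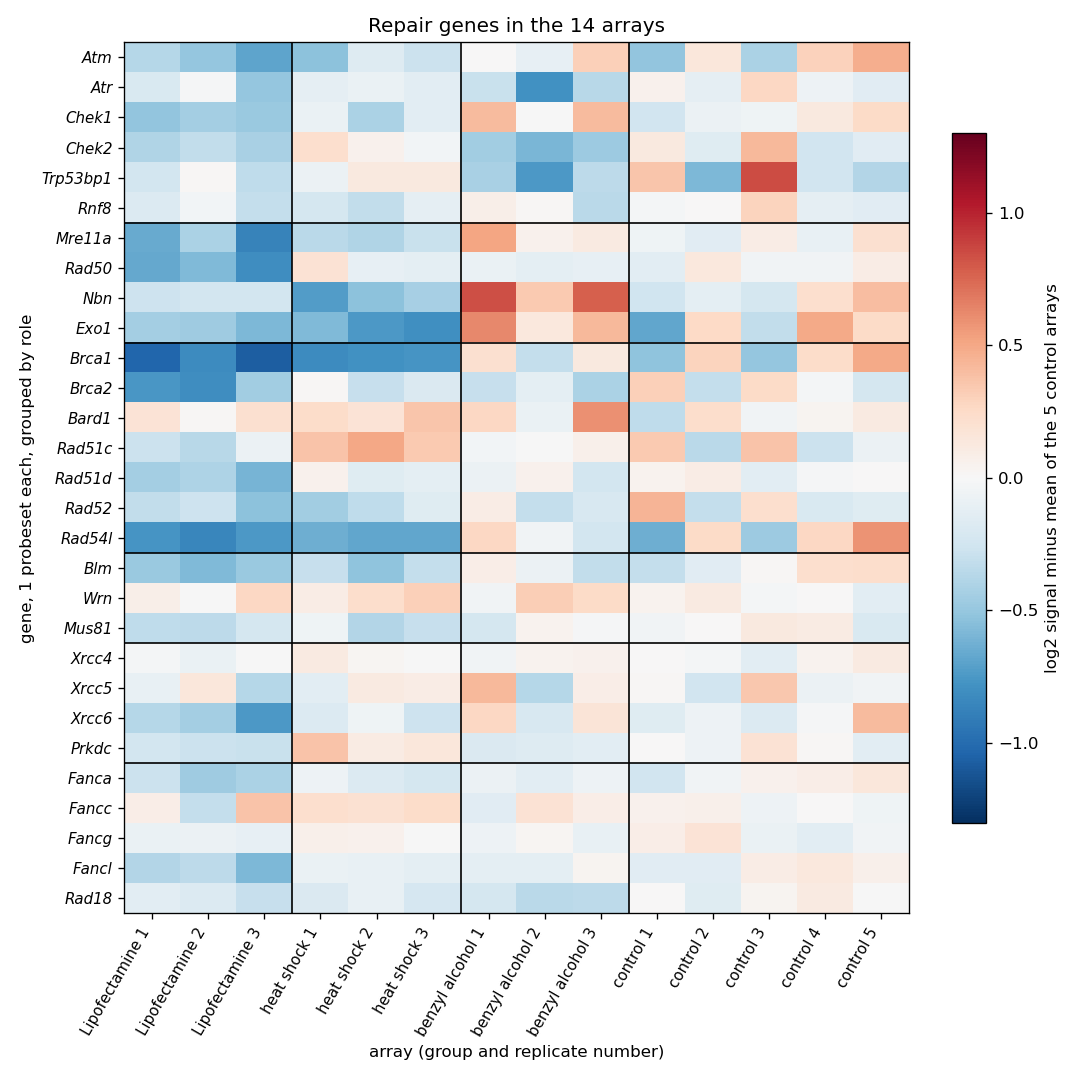
Repair genes (rows, grouped by role) in the 14 arrays (columns, LA, HS, BA and control cells), coloured by log2 signal minus the mean of the 5 control arrays. The LA columns are mostly blue, with array medians of -0.32, -0.34 and -0.43, while control arrays 1 and 3 differ from the other controls in both directions.

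Single arrays moved the count of lowered genes. It was 1, Rad50, without LA array 1, and it was 5 without LA array 2 and 4 without LA array 3. It was 4 without control array 4, 5 without control array 5 and 6 without HS array 3. HS arrays are not part of this comparison. They leave its log2 changes as they are and act only through the shared spread and the adjustment. Without control arrays 1 and 3 the count was 14, which held all 10 genes. Without control arrays 2, 4 and 5 it was 8, of which 4 were among the 10, namely Mre11a, Rad50, Brca1 and Brca2. For these and the other alternative fits below, no share over all genes is given. Their counts therefore do not set the repair genes against all genes.

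End resection genes were read as the sensor complex and the exonuclease Exo1, and 2 of 4 fell with Lipofectamine. Rad50, the coiled-coil subunit that tethers DNA ends, read 8.72, 8.81 and 8.57 in LA arrays, 9.57, 9.28 and 9.25 in HS arrays, 9.30, 9.26 and 9.27 in BA arrays, and 9.24, 9.52, 9.34, 9.34 and 9.48 in control arrays (replicates in order, here and below). The LA arrays were the lowest of the 14 and the other groups overlapped. Its change with Lipofectamine was -0.68 (SE 0.106, limma adjusted p = 0.00313), and it was -0.59 (adjusted p = 0.0187) without control arrays 2, 4 and 5. No single array that was left out ended this call. A second, dimmer Rad50 probeset did not change (log2 change 0.00, SE 0.164, adjusted p = 0.996), and the mean of both probesets missed the threshold (adjusted p = 0.0812).

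Mre11a, the nuclease of the complex, read 7.93, 8.18 and 7.72 in LA arrays, 8.24, 8.19 and 8.30 in HS arrays, 9.09, 8.64 and 8.71 in BA arrays, and 8.53, 8.44, 8.68, 8.49 and 8.79 in control arrays. Both the LA and the HS arrays lay below every control array, and the BA arrays overlapped the controls. The change was -0.64 with Lipofectamine (SE 0.115, limma adjusted p = 0.00787) and -0.34 with heat shock (SE 0.115, adjusted p = 0.096). Its control arrays 1 and 3 differed from the other controls by 0.03. The LA call missed the threshold without LA array 1 (adjusted p = 0.0518).

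Nbn, the third subunit, which binds damage signals on chromatin and recruits Atm, read 7.83, 7.86 and 7.86 in LA arrays, 7.38, 7.57 and 7.67 in HS arrays, 8.94, 8.44 and 8.87 in BA arrays, and 7.84, 7.97, 7.87, 8.31 and 8.50 in control arrays. HS arrays were the lowest of the 14. BA arrays 1 and 3 were above every control array, and BA array 2 was below control array 5. The changes were -0.25 with Lipofectamine (95% interval -0.56 to 0.06; without control arrays 1 and 3, -0.41, limma adjusted p = 0.032), -0.56 with heat shock (SE 0.144, limma adjusted p = 0.0375) and 0.65 with benzyl alcohol (SE 0.152, adjusted p = 0.0448). Exo1, the exonuclease of long-range resection, was lower in control arrays 1 and 3 by 0.83 and had uncalled changes of -0.50 with Lipofectamine (adjusted p = 0.216) and -0.71 with heat shock (adjusted p = 0.0637). Without control arrays 1 and 3 it fell by 0.83 with Lipofectamine (limma adjusted p = 3.3e-05) and by 1.04 with heat shock (adjusted p = 3.0e-06).

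Both Nbn calls depended on the arrays. The heat shock change was -0.32 (limma adjusted p = 0.17) without control arrays 2, 4 and 5, and the call was lost without control array 4 (adjusted p = 0.0898), control array 5 (0.0645), LA array 1 (0.0604), or HS array 1 (0.155), 2 (0.131) or 3 (0.0965). The heat shock change itself stayed at -0.56 without LA array 1, which is not part of that comparison. The benzyl alcohol change was 0.49 (adjusted p = 0.0892) without control arrays 1 and 3 and kept its call in 3 of 14 fits that each left out 1 array, those without control array 4, control array 5 or BA array 2.

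Recombination genes included the largest fall of the set. Brca1, the E3 ligase that promotes resection and recruits Brca2, read 8.54, 8.75 and 8.50 in LA arrays, 8.75, 8.78 and 8.80 in HS arrays, 9.78, 9.26 and 9.70 in BA arrays, and 9.05, 9.86, 9.07, 9.80 and 10.06 in control arrays. LA and HS arrays lay below all controls, and control arrays 1 and 3 lay 0.85 below the other controls, nearer to the LA and HS arrays. The change was -0.97 with Lipofectamine (SE 0.207, limma adjusted p = 0.0183) and -0.79 with heat shock (SE 0.207, adjusted p = 0.0405). With control arrays 1 and 3 as the only controls these were -0.46 (adjusted p = 0.0404) and -0.28 (adjusted p = 0.225).

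Of the 3 further Brca1 probesets, 2 had similar changes with Lipofectamine, -0.93 (adjusted p = 0.0547) and -0.96 (adjusted p = 0.0905), and with heat shock they fell by 1.10 (adjusted p = 0.0269) and 1.32 (adjusted p = 0.0252). The last had changes of -0.07 with Lipofectamine and 0.05 with heat shock. With the mean of all 4 probesets the LA change was -0.73 (adjusted p = 0.0585). The LA call on the brightest probeset was lost without LA array 1 (adjusted p = 0.0945) or LA array 3 (adjusted p = 0.0828), and the heat shock call stayed in 2 of 11 such fits, those without control array 1 or 3.

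Brca2, a tumour suppressor needed for homologous recombination, read 7.56, 7.50 and 7.86 in LA arrays, 8.33, 8.01 and 8.12 in HS arrays, 8.02, 8.18 and 7.90 in BA arrays, and 8.62, 8.00, 8.56, 8.29 and 8.09 in control arrays. LA arrays were below every control array, and HS and BA arrays overlapped the controls. Opposite to Brca1, control arrays 1 and 3 were 0.47 higher than the other controls. The LA change was -0.67 (SE 0.150, limma adjusted p = 0.0226), and -0.49 (adjusted p = 0.00978) without control arrays 1 and 3. The call was lost without control array 4 (adjusted p = 0.0502), LA array 1 (0.119) or LA array 2 (0.0805).

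Rad51d, which also takes part in homologous recombination, read 7.78, 7.82 and 7.62 in LA arrays, 8.28, 8.07 and 8.10 in HS arrays, 8.15, 8.28 and 7.99 in BA arrays, and 8.27, 8.31, 8.09, 8.21 and 8.23 in control arrays. The LA arrays were the lowest of the 14, and HS and BA arrays overlapped the controls. The change was -0.48 (SE 0.0921, limma adjusted p = 0.0107), its second probeset fell by 0.50 (adjusted p = 0.0147), and both control sets were 0.07 apart. The call was lost without LA array 1 (adjusted p = 0.0552) and without control arrays 2, 4 and 5 (adjusted p = 0.0641).

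Rad54l, a motor protein of strand exchange, had an uncalled change of -0.78 with Lipofectamine (adjusted p = 0.0619), with all LA arrays (7.27 to 7.38) below all controls (7.49 to 8.71). Its 2 dimmer probesets fell by 0.63 (limma adjusted p = 0.029) and 0.78 (adjusted p = 0.04). Control arrays 1 and 3 read 7.49 and 7.65, which put them 0.92 below control arrays 2, 4 and 5 on average, the lowest such difference among the 29 genes, and without them Rad54l fell by 1.15 with Lipofectamine (limma adjusted p = 9.5e-07). Bard1, the partner of Brca1, had a change of 0.13 (95% interval -0.12 to 0.39). The Bard1 and Rad52 probesets are dim, with means of 6.44 and 6.47 over the 14 arrays, below the median of every array (7.03 to 7.12). Rad51c and Rad52 had changes of -0.24 and -0.37 that were not called. Against control arrays 1 and 3 alone both fell, Rad51c by 0.59 (limma adjusted p = 0.013) and Rad52 by 0.70 (adjusted p = 0.00771). Against all controls, their dimmer probesets had uncalled changes of -0.58 (limma adjusted p = 0.0691) and -0.13 (adjusted p = 0.566).

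**Figure D2:**
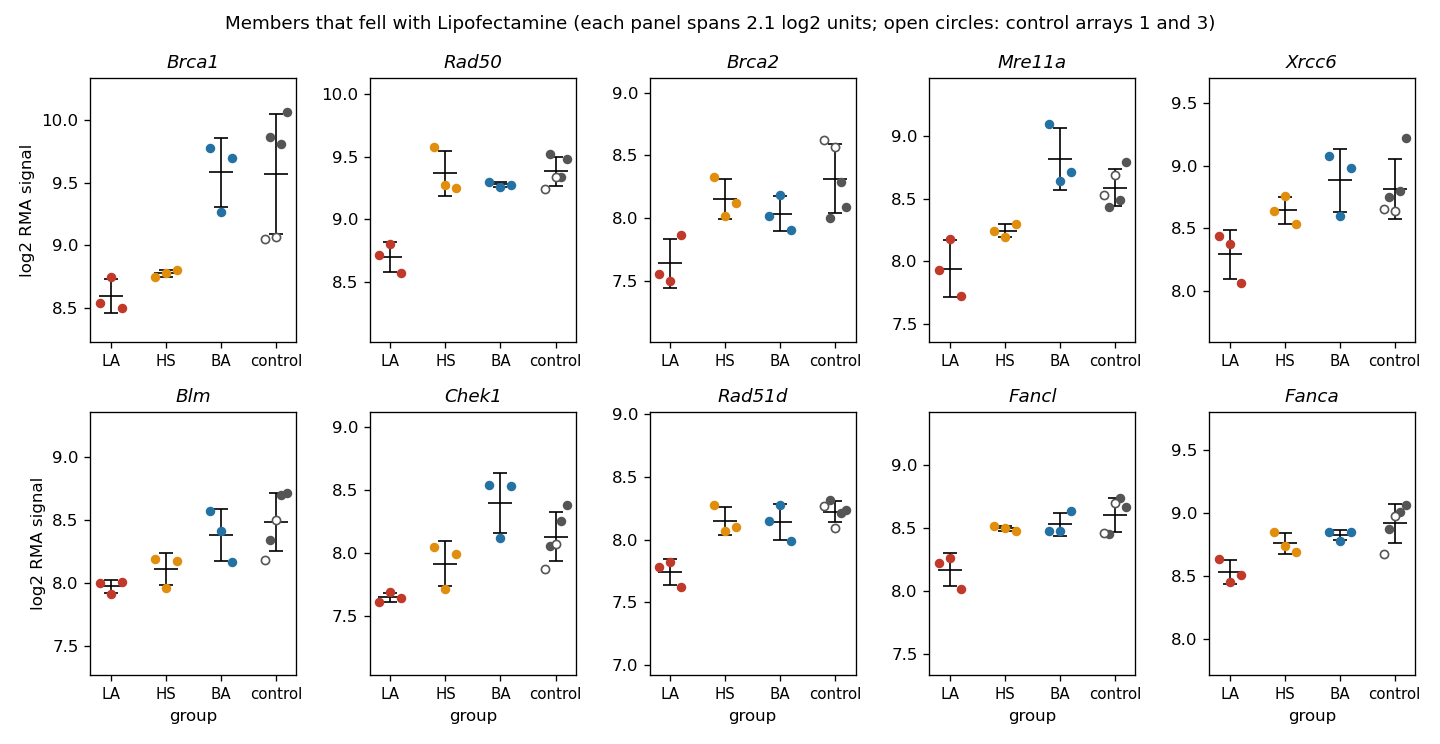
RMA log2 signal of the 10 genes that fell with Lipofectamine, each dot an array, with group mean and SD (horizontal lines, n = 3, 3, 3 and 5). LA arrays lie below all control arrays in every panel, and control arrays 1 and 3 (open circles) are the lowest controls for Brca1 and the highest for Brca2.

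Promoters are printed for Brca1, Brca2 and Mre11a, whose fall held under both sets of control arrays. That of the Ku subunit gene Xrcc6 is also printed, because it fell and carries both kinds of word marked below. E2F and the CCAAT factor NF-Y act on many cell cycle promoters. They span 250 bases before to 50 after the RefSeq start in GRCm38.p6, and capitals mark matches on either strand to an E2F word (TTTCCCGC, TTTCGCGC, TTTGCCGC or TTTGGCGC) or to CCAAT. The printed matches do not overlap one another.
Brca1, chr11:101551906-101552205, minus strand: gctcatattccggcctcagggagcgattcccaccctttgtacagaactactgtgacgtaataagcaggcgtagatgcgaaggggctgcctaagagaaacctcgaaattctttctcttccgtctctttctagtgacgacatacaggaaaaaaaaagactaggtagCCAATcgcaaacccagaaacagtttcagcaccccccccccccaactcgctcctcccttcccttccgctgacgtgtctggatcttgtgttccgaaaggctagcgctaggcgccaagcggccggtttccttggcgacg
Brca2, chr5:150522371-150522670, plus strand: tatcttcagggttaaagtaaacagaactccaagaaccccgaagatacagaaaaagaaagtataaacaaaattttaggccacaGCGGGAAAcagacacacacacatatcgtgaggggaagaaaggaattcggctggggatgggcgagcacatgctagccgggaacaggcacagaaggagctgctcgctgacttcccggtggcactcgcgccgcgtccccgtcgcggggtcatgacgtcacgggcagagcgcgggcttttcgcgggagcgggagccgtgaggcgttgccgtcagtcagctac
Mre11a, chr9:14784404-14784703, plus strand: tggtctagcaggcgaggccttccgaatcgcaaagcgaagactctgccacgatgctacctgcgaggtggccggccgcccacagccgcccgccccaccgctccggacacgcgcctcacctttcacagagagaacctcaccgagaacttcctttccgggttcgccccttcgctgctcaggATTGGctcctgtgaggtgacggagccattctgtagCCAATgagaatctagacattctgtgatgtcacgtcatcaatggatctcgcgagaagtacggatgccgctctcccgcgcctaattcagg
Xrcc6, chr15:82016119-82016418, plus strand: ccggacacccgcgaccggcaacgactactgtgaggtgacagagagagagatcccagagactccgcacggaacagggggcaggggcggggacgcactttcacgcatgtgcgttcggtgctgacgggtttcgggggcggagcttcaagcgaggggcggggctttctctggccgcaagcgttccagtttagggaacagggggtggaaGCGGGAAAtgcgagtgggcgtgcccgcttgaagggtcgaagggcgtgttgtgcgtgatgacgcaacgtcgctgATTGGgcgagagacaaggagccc

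Brca1 held 1 CCAAT and no E2F word, Brca2 an E2F word that begins at position -168 from the start, Mre11a 2 CCAAT, and Xrcc6 an E2F word at -46 and 1 CCAAT. Of the 26 promoters matched to 23 of the 29 genes, 7 held an E2F word, against 2.26% of the 32851 promoters in the table, and 12 held CCAAT, against 37.4%. The word GAANNTTC of the heat shock element occurred in 0 of 26, against 7.86% of all promoters, and the cell cycle words TTTGAA and TTCGAA in 3 of 26, against 19.2%. Of the 8 genes that fell with Lipofectamine and had a promoter, 2 held an E2F word, against 6 of all 23 repair genes with a promoter. A match describes the letters of a window, and it was not tested as a binding site.

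Among checkpoint kinases and mediators, 1 of 6 was lower with Lipofectamine. Chek1, the effector kinase of Atr, read 7.61, 7.68 and 7.64 in LA arrays, 8.04, 7.71 and 7.99 in HS arrays, 8.54, 8.12 and 8.54 in BA arrays, and 7.87, 8.06, 8.07, 8.26 and 8.38 in control arrays. LA arrays lay below all controls, with a change of -0.48 (SE 0.119, limma adjusted p = 0.0346). Its 3 other probesets gave -0.12, 0.05 and -0.04, none called, so the call rests on 1 of 4 probesets, and it was lost with their mean (log2 change -0.15, adjusted p = 0.398). It held in 4 of 11 fits without 1 array and was lost without control array 2, 4 or 5, HS array 3, or any LA array (adjusted p = 0.0533 to 0.152).

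Atm, the kinase at the head of the double-strand break response, ranged over 7.09 to 7.40 in LA arrays, 7.23 to 7.60 in HS arrays, 7.66 to 8.08 in BA arrays and 7.26 to 8.24 in control arrays. The LA change was -0.52 (limma adjusted p = 0.174). Control arrays 1 and 3 read 7.26 and 7.36, 0.77 below the others, and without them the change was -0.83 (adjusted p = 1.2e-04). Trp53bp1, which shields ends from resection, went the other way, 1.01 higher in control arrays 1 and 3, and its LA change was -0.18 with all controls and -0.79 (adjusted p = 0.0084) against those 2 arrays alone. A dimmer Trp53bp1 probeset was only 0.24 higher in control arrays 1 and 3. Its mean was 7.65 in LA arrays, against 8.01 in those 2 control arrays. Chek2, the effector kinase of Atm, had changes of -0.38 with Lipofectamine and -0.50 with benzyl alcohol (adjusted p = 0.141 and 0.0722), and against control arrays 1 and 3 alone it fell by 0.66 with Lipofectamine (adjusted p = 0.00904). Atr had a change of -0.48 with benzyl alcohol (limma adjusted p = 0.0958), on a dim probeset with a mean of 6.80, below the median of every array. Rnf8, a ubiquitin ligase at breaks, had a change of -0.17 with Lipofectamine.

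**Figure D3:**
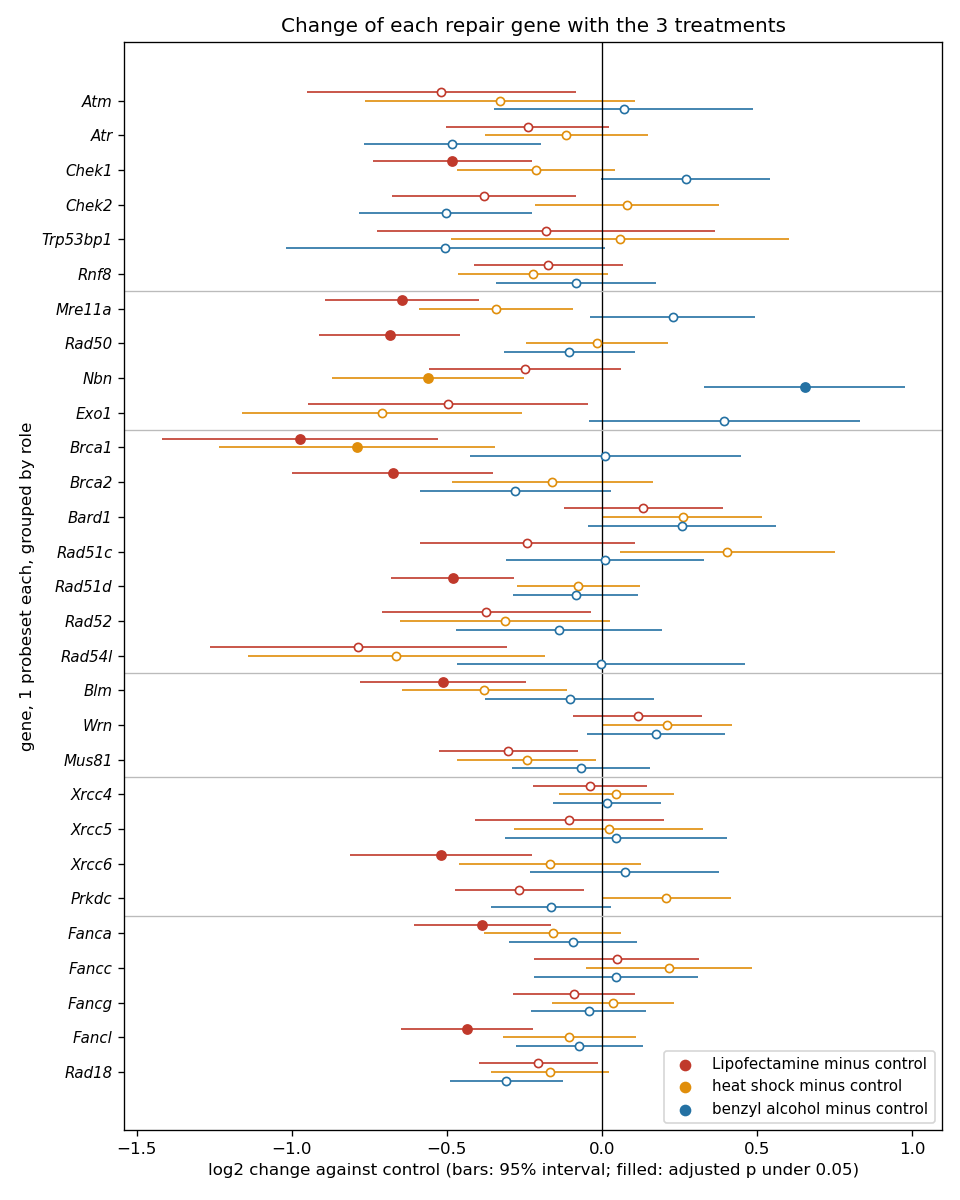
Log2 change of the 29 genes (grouped by role) with Lipofectamine, heat shock and benzyl alcohol against the 5 control arrays, with 95% intervals, filled where the adjusted p is under 0.05. Lipofectamine has 10 filled points, heat shock 2 and benzyl alcohol 1.

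Of the helicases and the junction nuclease, 1 of 3 fell. Blm, which dissolves recombination intermediates, read 8.00, 7.92 and 8.01 in LA arrays, 8.19, 7.96 and 8.18 in HS arrays, 8.57, 8.42 and 8.16 in BA arrays, and 8.18, 8.34, 8.50, 8.70 and 8.71 in control arrays. LA arrays were below the controls, and the change was -0.51 (SE 0.124, limma adjusted p = 0.0326). It held in 5 of 11 fits without 1 array and was lost without control array 4 or 5, HS array 3, or any LA array (adjusted p = 0.0524 to 0.121). Mus81, a nuclease that cuts junctions, had -0.30 on its brightest probeset (adjusted p = 0.119), and its dimmer probeset fell by 0.36 (adjusted p = 0.0375). Wrn, another helicase, had a change of 0.11 (95% interval -0.09 to 0.32). Its probeset is dim, with a mean of 6.17 over the 14 arrays, below the median of every array (7.03 to 7.12).

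Of the end joining genes, 1 of 4 was lower. Xrcc6, the Ku70 subunit, read 8.44, 8.37 and 8.07 in LA arrays, 8.64, 8.76 and 8.54 in HS arrays, 9.08, 8.60 and 8.98 in BA arrays, and 8.65, 8.75, 8.64, 8.80 and 9.22 in control arrays. LA arrays were below all controls, and the change was -0.52 (SE 0.136, limma adjusted p = 0.0455), a call that stayed in 2 of 11 fits, those without control array 1 or 3. Control array 5 stood apart from the other controls for this gene. Xrcc5, the Ku80 subunit, had a change of -0.11 (95% interval -0.41 to 0.20), and Xrcc4, the ligase scaffold, of -0.04 (95% interval -0.22 to 0.15).

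Of the Fanconi anaemia genes and Rad18, 2 of 5 fell. Fancl, the ubiquitin ligase subunit of the core complex, read 8.22, 8.26 and 8.02 in LA arrays, 8.52, 8.50 and 8.48 in HS arrays, 8.48, 8.48 and 8.64 in BA arrays, and 8.46, 8.45, 8.70, 8.74 and 8.67 in control arrays, with a change of -0.44 (SE 0.099, limma adjusted p = 0.0251). LA arrays were the lowest of the 14. The call was lost without control array 4 (adjusted p = 0.0642), control array 5 (0.0558), LA array 1 (0.0925) or LA array 3 (0.105). Fanca, another core subunit, read 8.64, 8.45 and 8.51 in LA arrays, 8.85, 8.74 and 8.69 in HS arrays, 8.85, 8.78 and 8.85 in BA arrays, and 8.67, 8.87, 8.97, 9.01 and 9.06 in control arrays. LA arrays lay below all controls, LA array 1 only just below control array 1, and the change was -0.39 (SE 0.103, adjusted p = 0.0475), kept in 1 of 11 fits, the one without control array 1. Fancc and Fancg, core subunits too, had changes of 0.05 and -0.09, and Rad18, a ubiquitin ligase of damage bypass, of -0.21 (adjusted p = 0.226).

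With heat shock, 2 of the 29 genes fell (6.90%), Nbn and Brca1, and 0 rose, against 4.15% and 0.888% of all genes. The median change was -0.16, against 0.04 over all genes, and at an unadjusted p under 0.05 limma gave 7 lower and 3 higher genes. All HS arrays lay below all controls for 4 of the 29, against 9.83% of all genes. The count was 0 without control array 4 or 5, any HS array or LA array 1, 1 without control array 2 or LA array 2 or 3, 5 without control array 1 and 4 without control array 3. Rad18 fell by 0.72 on a dimmer probeset (adjusted p = 0.0148) and changed by -0.17 on its brightest one. Against control arrays 2, 4 and 5 alone, Atm, Exo1, Rad54l and Blm fell too, by 0.64, 1.04, 1.03 and 0.48, and Trp53bp1 and Rad51c rose by 0.46 and 0.64. Against control arrays 1 and 3 alone, neither Nbn nor Brca1 was called and Rad52 was, with a fall of 0.64 (limma adjusted p = 0.017). Dimmer probesets of these genes differed less. The HS mean was 7.84 for Trp53bp1 and 6.98 for Rad51c, against 7.76 and 6.76 in control arrays 2, 4 and 5. For Rad52 it was 5.53, against 5.59 in control arrays 1 and 3.

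Benzyl alcohol raised 1 of the 29 genes, Nbn, and lowered 0, against 0.726% and 0.694% of all genes. The median was -0.04, at an unadjusted p under 0.05 limma gave 3 lower and 1 higher genes, and BA arrays lay below all controls for 4 of the 29 genes, against 4.64% of all genes. Against control arrays 1 and 3 alone, 5 genes were lower (Atr, Chek2, Trp53bp1, Brca2 and Rad52, by 0.47 to 1.11) and 5 were higher (Nbn, Atm, Exo1, Brca1 and Rad54l), and without those arrays 0 were called. For each of the 5 lower genes, control arrays 1 and 3 read above every other control array. For each of the 5 higher genes, they read below every other control array. The part of this split in these calls was not tested.

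Set directly against heat shock, Lipofectamine gave lower signal for 3 of the 29 genes (10.3%) and higher signal for 0, against 1.18% and 3.00% of all genes, with a median of -0.17 (all genes, -0.07) and, at an unadjusted p under 0.05, 9 lower and 0 higher. Rad50 had a difference of -0.67 (SE 0.119, limma adjusted p = 0.00582), which stayed called in all 20 alternative fits. Prkdc, the kinase that Ku recruits, read 5.86, 5.82 and 5.81 in LA arrays, 6.47, 6.21 and 6.24 in HS arrays, 5.91, 5.93 and 5.96 in BA arrays, and 6.10, 6.04, 6.28, 6.11 and 5.96 in control arrays. These values lie below the median of every array (7.03 to 7.12), so the probeset is dim. The LA arrays lay below the HS arrays, with a difference of -0.47 (SE 0.108, adjusted p = 0.0214), and neither group was called against control. Rad51d differed by -0.41 (SE 0.103, adjusted p = 0.0353). The Prkdc call was lost without any 1 of the HS arrays, LA array 1 or LA array 2 (adjusted p = 0.0509 to 0.104), and the Rad51d call without any HS or LA array or control array 4 (adjusted p = 0.0521 to 0.15). In both fits that kept only 1 set of controls, Chek2 (-0.46), Brca2 (-0.51) and Rad51c (-0.64) were also called lower in LA arrays (adjusted p = 9.4e-04 to 0.0181). These differences were the same with all controls, where limma did not call them (adjusted p = 0.105, 0.096 and 0.052). Controls are not part of the differences and enter only through the shared spread and the adjustment. Brca1 was not called between them (difference -0.18, 95% interval -0.68 to 0.31).

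Between the 2 sets of control arrays, the 29 genes had a median difference of -0.01, with 8 genes lower and 7 higher in control arrays 1 and 3 without overlap and 14 overlapping, near the 20.9% lower and 19.5% higher of all genes. The lower ones were led by Rad54l, Brca1, Exo1 and Atm and the higher ones by Trp53bp1 (1.01), Rad51c (0.59), Rad52 (0.55) and Brca2 (0.47). DNA replication genes were lower in those arrays in 30 of 38 cases (median -0.44).

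Genes of DNA replication and mitosis fell with the repair genes in LA cells, 12 of 38 (31.6%, median -0.49) and 11 of 26 (42.3%, median -0.64). In HS cells 3 of 38 (median -0.39) and 9 of 26 (median -0.62) fell, and in BA cells 0 of either list did (at an unadjusted p under 0.05, limma gave 2 replication and 0 mitosis genes lower). Their part in the fall of the repair genes was not tested, and these counts were not made without either set of control arrays. Set directly against heat shock, Lipofectamine gave medians of -0.05 for replication genes and 0.02 for mitosis genes, with 0 called by limma in either list (at an unadjusted p under 0.05, 6 lower and 1 higher replication genes, and 1 lower and 0 higher mitosis genes). Of 23 p53 targets, 4 were higher in LA cells, against 1.69% of all genes, and the median change was 0.29. In control arrays 1 and 3, 14 of the 23 were higher and 5 lower than in the other controls without overlap (median difference 0.29). Over all genes these shares were 19.5% and 20.9%. The cause of the p53 target changes was not tested.

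**Figure D4:**
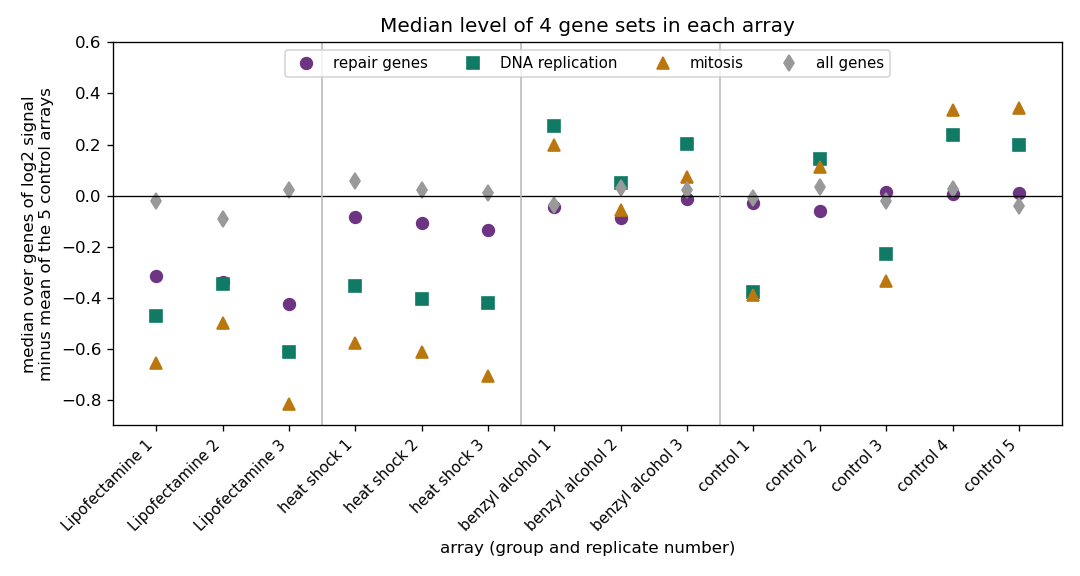
Median over genes of log2 signal minus the control mean, for the 29 repair genes, 38 DNA replication genes, 26 mitosis genes and all genes in each array. Repair genes are at -0.32 to -0.43 in LA arrays and at -0.08 to -0.14 in HS arrays, while mitosis genes lie at -0.50 to -0.81 in LA arrays, at -0.58 to -0.71 in HS arrays and also below 0 in control arrays 1 and 3.

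Of 73 other genes of these pathways, Lipofectamine lowered 6 and raised 0 (median -0.15; by limma at an unadjusted p under 0.05, 28 lower and 3 higher), against 3.33% and 1.69% of all genes. Timeless and Tipin, the fork protection pair, both fell by 0.69 (adjusted p = 0.00353 and 0.0107). Eme1, the partner of Mus81, fell by 0.93 (adjusted p = 0.0105), and Rad51ap1, which stimulates strand exchange, by 0.67 (adjusted p = 0.0187). Tipin and Eme1 also fell with heat shock, by 0.61 (limma adjusted p = 0.0202) and 0.78 (adjusted p = 0.0235). With heat shock 12 of 73 fell, against 4.15% of all genes, among them Wee1, the kinase that holds cells before mitosis, by 1.04 (adjusted p = 6.6e-04), the Fanconi subunit Fancf by 0.72 (0.00388), the clamp subunit Hus1 by 0.56 (0.00456) and the mediator Paxip1 by 0.55 (0.00805). With benzyl alcohol 1 of 73 fell and 1 rose, against 0.694% and 0.726% of all genes. H2ax, the histone marked at breaks, fell by 0.59 (limma adjusted p = 0.00788), and Ube2b, the partner of Rad18, rose by 0.58 (adjusted p = 0.0166). With only BA and control arrays in the fit, neither was called (adjusted p = 0.0711 and 0.061). H2ax fell with heat shock too, by 0.48 (adjusted p = 0.0209). Against heat shock directly, Lipofectamine had higher signal for Wee1 (0.89, adjusted p = 0.0032), Fancf (0.63, 0.0114), Rev1 (0.59, 0.0292) and Etaa1 (0.72, 0.0387), and lower signal for 0 of 73 (8 at an unadjusted p under 0.05, limma).

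When all probesets of a gene were averaged, the heat shock changes of Hus1 and Paxip1 were -0.29 (limma adjusted p = 0.133) and -0.31 (adjusted p = 0.0803), and the difference of Fancf between Lipofectamine and heat shock was 0.26 (adjusted p = 0.122). The last was also lost with all 14 arrays in the fit (adjusted p = 0.0672). Some of these calls were lost with 1 array left out. With Lipofectamine, Tipin was lost without LA array 1 (adjusted p = 0.0525) or 3 (0.0586), Rad51ap1 without LA array 1 (0.117) or 3 (0.0759), and Eme1 without LA array 3 (0.0608). With heat shock, Paxip1 was lost without HS array 3 (limma adjusted p = 0.0575). The heat shock calls of Tipin, Eme1 and H2ax were each lost without control array 4 or without any 1 of the HS arrays. With benzyl alcohol, Ube2b was lost without BA array 1 (adjusted p = 0.0927) or 3 (0.0572). Between Lipofectamine and heat shock, Fancf was lost without HS array 2 (adjusted p = 0.0534) or LA array 2 (0.0551), Rev1 without LA array 1 or 2 or any HS array (0.0562 to 0.121), and Etaa1 without any LA or HS array (0.0531 to 0.167). The calls of Timeless with Lipofectamine, of Wee1, Fancf and Hus1 with heat shock, of H2ax with benzyl alcohol and of Wee1 between the 2 stresses stayed in every fit that left out 1 array. Against control arrays 1 and 3 alone, Tipin and Rad51ap1 with Lipofectamine and Paxip1, Tipin, Eme1 and H2ax with heat shock were not called.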

How the data were processed

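RNA of 14 cultures was hybridised to Affymetrix mouse expression arrays, 1 array each. Per the submitters' processing notes, data were acquired with GCOS 1.2, and the deposited values are log2 signals that the authors made by RMA, which corrects background, normalizes by quantiles and summarises probes (version not given in the sources used here). Quantile normalization hides a shift common to all genes. After 64 control probesets were set aside, 22626 probesets were tested with limma 3.58.1 in R 4.3.3, with p-values adjusted by Benjamini-Hochberg over all of them and called under 0.05. LA, HS and control arrays shared a fit of 11 arrays and BA arrays one of 14, since the methods compare those 3 groups together. Platform symbols gave 1 name for 20380 probesets, several for 691 and none for 1555. Counts over all genes use the brightest probeset of each of 12393 genes, and intervals are from limma. The members and gene lists, and the rule to name called members and the largest uncalled one of each role, were chosen with earlier results of these data known. Alternatives were a filter on dim probesets, repeated quantile normalization, a variance trend, array weights, other arrays in the fit, all probesets of a gene averaged, the methods' threshold, a minimum fold, the replicate number as a block, either set of control arrays, and each array left out. Scanner files were not used here, so background correction was not varied. The fits were tested on simulated data. The number of arrays limits precision. Promoters are RefSeq sequences.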

Additional observations from a re-analysis of the deposited data

Results flagged for a closer look

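Xrcc6 in control array 5 had a log2 signal of 9.2226, against 8.7987 in the next highest control array, a gap of 0.7236 of the range of the 5 control arrays, above the critical value of 0.71 for 5 values. The 29 repair genes were tested in the control group, and chance gives such a value in about 1 of 20 groups. Without this array the fall of Xrcc6 with Lipofectamine was no longer called (adjusted p = 0.0635).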

How the results depend on the processing

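Lipofectamine lowered 10 repair genes. This was 18 with array weights, 4 at the methods' threshold (p under 0.001 in the F-test and the pairwise test), 4 with a fold of at least 1.5, and between 1 (without LA array 1) and 13 with 1 array left out. For heat shock the 2 lower genes were 0 after another quantile normalization, 8 with array weights (with 2 higher), 4 with the mean of probesets, 0 at the methods' threshold, 1 with the minimum fold, 6 without control arrays 1 and 3 (with 2 higher), 1 without control arrays 2, 4 and 5 (Rad52, with both of the 2 lost), and 0 to 5 lower and 0 to 1 higher with 1 array left out. With benzyl alcohol, genes lower were 0, and 1 with array weights and 5 without control arrays 2, 4 and 5, and the 1 higher gene was 0 with only BA and control arrays, 0 without control arrays 1 and 3, 5 without control arrays 2, 4 and 5, and 0 to 1 with 1 array left out. Rad54l had a benzyl alcohol change of 0.55 (adjusted p = 0.0142) without control arrays 2, 4 and 5, against -0.00 with all controls. Lipofectamine against heat shock gave 3 lower genes, 7 after quantile normalization, 13 with array weights (with 2 higher), 1 at the methods' threshold, 1 with the minimum fold, 6 with either set of controls (1 and 3, or 2, 4 and 5) removed, and 1 to 5 with 1 array left out. No share over all genes is given for these fits, so their counts do not set the repair genes against all genes. Controls are not part of the differences between Lipofectamine and heat shock. They enter that count only through the shared spread and the adjustment. The causes of the other changes in these counts were not tested. Whether replicate numbers pair the samples was not settled. Deviations from the group means correlated at -0.56 to 0.44 in 18 same-numbered pairs, 3 of them over 0.1. In 54 pairs with different numbers they correlated at -0.65 to 0.63, 10 of them over 0.1. With the replicate block the lower genes were 1 with Lipofectamine, 0 with heat shock, 1 with benzyl alcohol and 1 for Lipofectamine against heat shock. Replicate numbers 4 and 5 occur only among controls, so control arrays 4 and 5 add nothing to the changes against control in that fit. Blocking and the loss of these arrays cannot be told apart there.

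The direction of the Lipofectamine count held in every alternative, with 0 higher genes in each. The filter on dim probesets, the variance trend and 14 arrays in the fit moved no Lipofectamine count by over 1.5 times. Groups of 3 arrays limit which small changes can be called, and dim probesets lie near the background, where changes are compressed.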
